A study of Mus musculus with 12 samples.

Results

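Ddit4, the sestrins Sesn1, Sesn2 and Sesn3, the PI3-kinase subunit Pik3r1, the transcription factors Foxo1 and Foxo3 and the insulin receptor substrates Irs1 and Irs2 were followed by gene name through bulk RNA-seq of newborn mouse testis. They are 9 of the 54532 genes in the count table, and each was found once under its symbol. The 12 libraries came from mice that all carry a Pou5f1 (OCT4) transgene with the germ-cell enhancer and GFP, so that live GFP-positive germ cells could be sorted from GFP-negative somatic cells. Dams received 10 μg dexamethasone (dex) per g, or saline, at E17.5 and E18.5, the pups were injected again at PN0, and testes were taken at PN1. This gave 3 libraries each of germ cells with dex and with saline, and of somatic cells with dex and with saline. Each replicate pooled testes from at least 2 litters dosed separately, and the somatic population is a mixture of cell types.

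Dex is a synthetic ligand of the glucocorticoid receptor. Ddit4 (REDD1) is a stress- and glucocorticoid-responsive gene whose protein restrains mTORC1, the kinase complex that drives protein synthesis and growth, through the TSC1-TSC2 complex. The sestrins restrain the same kinase through the GATOR proteins that sense amino acids. On the activating side, insulin and IGF receptors phosphorylate Irs1 and Irs2, which recruit PI3-kinase through regulatory subunits such as Pik3r1, and the AKT kinase downstream phosphorylates FoxO factors and keeps them out of the nucleus. When that signal is low, Foxo1 and Foxo3 enter the nucleus and activate genes of metabolism, cell-cycle arrest and atrophy. Foxo1 is known in the testis as a regulator of gonocytes and spermatogonial stem cells, and Foxo3 in the ovary as a brake on primordial follicle activation.

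The start sites of the genes that passed the test in a dex comparison are shown because these are the genes whose transcript level moved with treatment. RefSeq (GRCm38.p6) gave 11 promoter windows for the 9 genes, each with 250 bases before and 50 bases after a start site. For Ddit4 the window lies on chromosome 10, minus strand, and the stretch chr10:59951835-59952020 upstream of the annotated exons reads as follows. For Pik3r1, also on the minus strand, the stretches upstream of the distal start site (chr13:101768218-101768467) and of an internal start site (chr13:101692631-101692880) follow it.
Ddit4: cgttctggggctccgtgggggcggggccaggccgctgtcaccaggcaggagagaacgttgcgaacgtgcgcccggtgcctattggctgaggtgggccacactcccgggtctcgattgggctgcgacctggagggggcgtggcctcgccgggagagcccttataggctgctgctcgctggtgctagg
Pik3r1, distal start site: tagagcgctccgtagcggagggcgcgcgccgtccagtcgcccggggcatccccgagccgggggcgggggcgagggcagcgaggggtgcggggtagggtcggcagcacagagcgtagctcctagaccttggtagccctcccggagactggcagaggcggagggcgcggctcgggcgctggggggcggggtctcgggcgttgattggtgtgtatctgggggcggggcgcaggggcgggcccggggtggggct
Pik3r1, internal start site: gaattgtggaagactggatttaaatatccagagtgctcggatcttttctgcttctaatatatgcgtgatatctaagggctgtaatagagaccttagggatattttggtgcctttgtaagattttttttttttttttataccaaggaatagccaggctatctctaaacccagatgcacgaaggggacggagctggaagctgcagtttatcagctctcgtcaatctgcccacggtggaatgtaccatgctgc
All 3 are printed 5′ to 3′ on the strand of the gene, and capitals would mark a match to any of 4 motifs searched on both strands. The Ddit4 window was 69% GC, the distal Pik3r1 window 75.7% and the internal one 43.7%, against a median of 52.7% over 32851 windows. The core of the glucocorticoid receptor element, ACANNNTGT, was in none of the 11 windows and in 6.85% of all windows. AGAACA, 1 arm of such an element, was in none of the 11 and in 19% of all windows. The ATF4 element TGATGNAA was in none of the 11 and in 3.97% of all windows. The FoxO site GTAAACA was in 1 of the 11, on the minus strand 22 to 28 bases after an upstream start site of Sesn1, and in 3.65% of all windows. These are matches of letters within 300 bases and say nothing of sites farther away.

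Library totals lay between 18459692 and 25178477 counts. Levels are CPM, counts relative to library size, scaled by TMM over the 12 libraries, and a count of 0 would allow up to 0.111 to 0.17 CPM, which covers counting error only. A list of 10 germ cell markers summed to 3331 to 3569 CPM in germ libraries and 20.2 to 26.2 CPM in somatic libraries. Of the germ cell markers, Dppa3 averaged 0.69 CPM in dex germ and 0.73 CPM in saline germ cells and was at 0 in somatic cells. Among the 10 Sertoli markers, Trf was not somatic-high (1.76 CPM in saline germ and 0.59 CPM in saline somatic cells). In somatic cells the peritubular and stromal markers summed to 3622 to 4147 CPM with dex and 2530 to 3201 CPM with saline, and 3 of 9 rose. The macrophage markers summed to 25.4 to 37.2 CPM with dex and 58.5 to 102 CPM with saline, and 4 of 10 fell. The erythroid markers summed to 85.3 to 299 CPM with dex and 256 to 394 CPM with saline, and 2 of 4 tested fell. The Leydig, endothelial and lymphocyte lists each had 1 gene that fell, and the Sertoli and germ lists had none called. In germ cells none of these lists had a called gene. The summed Sertoli, Leydig and peritubular and stromal markers stood in germ libraries at 1.40% to 1.87% of their somatic level with dex and 1.66% to 2.61% with saline, the Leydig list being the upper value. The erythroid sum stood at 3.56% and 2.84%. The endothelial (36.2% and 41.9%), macrophage (50.9% and 15.2%) and lymphocyte (83.8% and 70.7%) sums were higher shares of lower somatic levels. Part of the germ sums came from single genes. With saline, Flt1 (endothelial) stood at 40.5 CPM in germ and 2.33 CPM in somatic cells, and Cd79a (lymphocyte) at 5.68 and 2.02 CPM. With dex, Mrc1 (macrophage) stood at 11.4 and 5.67 CPM and Alas2 (erythroid) at 4.88 and 3.32 CPM. Others were lower in germ cells, such as Cdh5 (21.97 and 219.9 CPM with saline). In saline, 3 of 8 endothelial genes were called higher in germ cells and 4 lower, and all 10 macrophage genes were lower. A gene was called where the Benjamini-Hochberg adjusted p of edgeR's quasi-likelihood test was at or under 0.05.

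Dex raised 2 of the 9 genes in germ cells, Ddit4 by 3.06-fold and Pik3r1 by 1.51-fold, and lowered none. Across all 18550 genes tested, 0.739% were called higher and 0.507% called lower (137 and 94 genes; 149 and 66 where TMM was replaced by library totals). In somatic cells only Pik3r1 of the 9 was called, 1.5-fold higher, against 2.74% called higher and 1.17% called lower of 16766 genes (459 and 196; 380 and 329 with library totals). The median log2 fold change of the 9 genes was 0.047 in germ cells and 0.11 in somatic cells, against -0.0027 and -0.0066 over all genes tested. In bulk samples fewer cells of a type and less RNA per cell cannot be told apart.

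**Figure D1:**
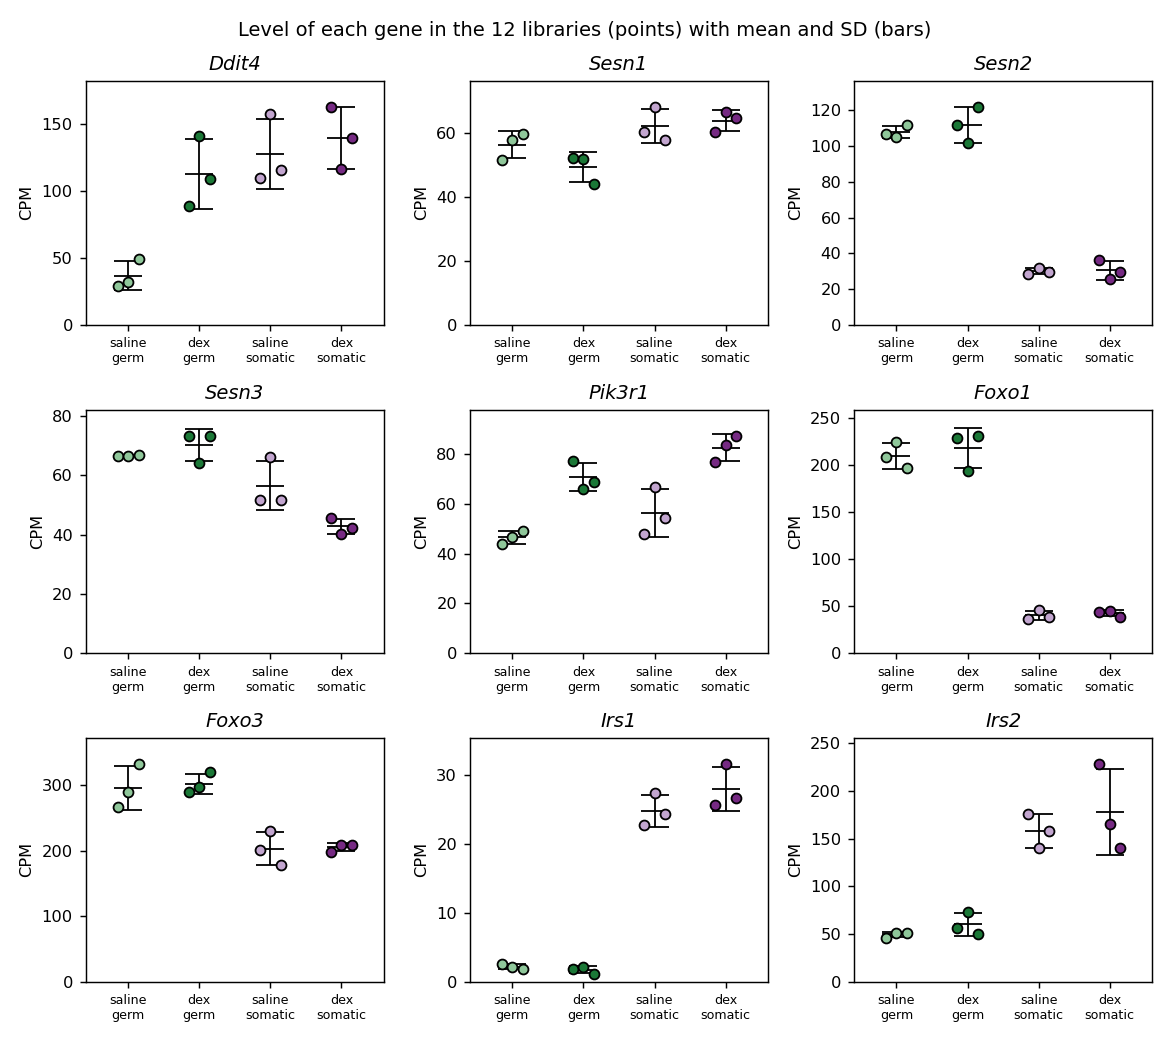
CPM of each gene in the 12 libraries, one panel per gene, with the 4 groups on the x axis and a linear y axis from 0. Points are libraries in replicate order and bars give the mean and SD of 3. The 3 dex germ libraries of Ddit4 sit at 88.9 to 141 CPM, above the saline germ libraries at 28.9 to 48.8 CPM.

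Ddit4 (ENSMUSG00000020108, GRCm38 chromosome 10, 59949669 to 59951834, minus strand) had the largest dex effect of the 9 genes in germ cells. In saline germ cells it stood at 28.9, 32.3 and 48.8 CPM in replicates 1, 2 and 3. In dex germ cells it stood at 88.9, 141 and 109 CPM. The 2 groups did not overlap, and the lowest dex library was above the highest saline library. Dex and saline germ libraries were separate, in either direction, in 20.01% of all genes tested. The mean rose from 36.7 ± 10.6 to 113 ± 26.1 CPM (SD, n = 3). The log2 fold change was 1.61 ± 0.18 (SE; edgeR adjusted p 0.00057), and by unadjusted p it was number 8 of the 18550 genes. Without any 1 of the 6 libraries the log2 fold change lay between 1.42 and 1.87 and stayed called. With limma-trend on log2(FPKM + 0.1) it was 1.64 with an adjusted p of 0.064, so the call was lost at the same size of change.

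In somatic cells Ddit4 was high in both treatments, and no dex effect was called. The saline somatic libraries stood at 110, 157 and 116 CPM and the dex somatic libraries at 162, 116 and 140 CPM, and the groups overlapped. The log2 fold change was 0.16 with a 95% confidence interval of -0.10 to 0.42 (edgeR adjusted p 0.59). Ddit4 was lower in germ than in somatic cells in saline by a log2 fold change of -1.80 ± 0.19 (adjusted p 2.67e-06). In dex the same comparison gave -0.31 ± 0.15 (adjusted p 0.087), with overlapping libraries. That test did pass without dex germ replicate 2 (-0.47) or dex somatic replicate 2 (-0.43), and with no filter on low counts (-0.23). Germ cells with dex stood at 113 ± 26.1 CPM beside 139 ± 23.1 CPM in somatic cells with dex.

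The difference between the dex effects, germ minus somatic, was 1.49 ± 0.27 on the log2 scale for Ddit4 (95% confidence interval 0.91 to 2.07, edgeR adjusted p 0.0152). Of all 20551 genes tested over the 12 libraries, 0.414% were called with a higher effect in germ cells and 0.414% with a lower one (85 and 85; 148 and 73 with library totals), and Ddit4 was the 1 member of 9 called. The call was lost without saline germ replicate 1 (difference 1.33, adjusted p 0.0568) and without saline germ replicate 2 (1.39, adjusted p 0.0502). The comparisons in germ cells and the difference share the same germ libraries. At the Leydig shares of 1.87% and 2.61%, the somatic level of Ddit4 amounts to 2.61 CPM with dex and 3.33 CPM with saline. The erythroid, endothelial, macrophage and lymphocyte shares were higher, up to 83.8% with dex and 70.7% with saline (lymphocyte). Part of those germ sums came from single genes, as given above. The part of such cells in the germ levels of Ddit4 was not tested.

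Pik3r1 (ENSMUSG00000041417, chromosome 13, 101680563 to 101768217, minus strand) was raised by dex in both populations. In germ cells it stood at 43.9, 46.6 and 49.1 CPM with saline and at 77.1, 66.0 and 68.9 CPM with dex. In somatic cells it stood at 48.0, 66.8 and 54.2 CPM with saline and at 76.5, 83.4 and 87.3 CPM with dex. In each population all 3 dex libraries were above all 3 saline libraries. Dex and saline libraries were separate, in either direction, in 20.01% of all genes tested in germ cells and 21.4% in somatic cells. The log2 fold change was 0.60 ± 0.095 (SE) in germ cells (edgeR adjusted p 0.0076) and 0.58 ± 0.11 in somatic cells (adjusted p 0.0072). The effects differed by 0.054, with a 95% confidence interval of -0.29 to 0.40 (adjusted p 0.97). In germ cells the call was lost without saline germ replicate 1 (0.55, adjusted p 0.066), and with limma-trend on FPKM it was lost in both populations (adjusted p 0.083 to 0.0996).

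In germ cells the same Leydig shares correspond to 1.54 CPM of Pik3r1 with dex and 1.47 CPM with saline, beside germ levels of 70.7 and 46.6 CPM. The higher shares of the other somatic lists were not applied here, and the part of such cells was not tested. In somatic cells Pik3r1 moved together with the peritubular and stromal sum given above and against the macrophage sum, and their part in its rise was not tested. Pik3r1 encodes a regulatory subunit that binds the phosphorylated insulin receptor substrates, with shorter forms from internal start sites. The counts do not separate transcripts of the 2 start sites shown above.

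**Figure D2:**
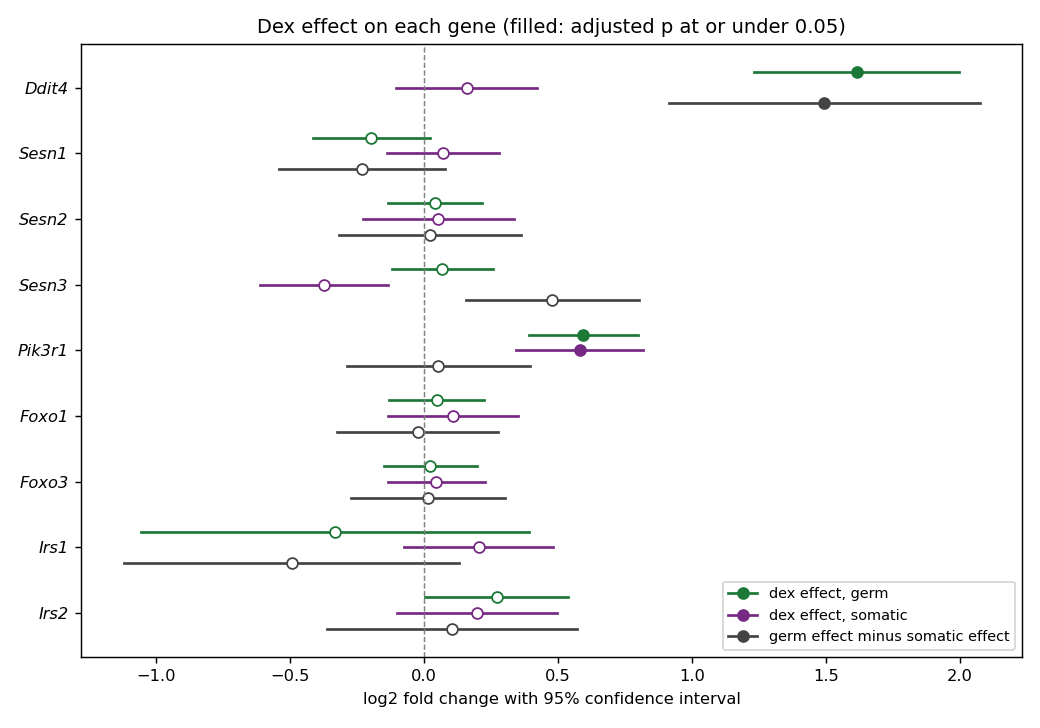
Log2 fold change of dex over saline in germ cells and in somatic cells, and the germ effect minus the somatic effect, for each gene on the y axis. Lines are 95% confidence intervals and filled points have an adjusted p at or under 0.05, which holds for Ddit4 in germ cells and in the difference and for Pik3r1 in both populations.

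The sestrins, stress-induced partners of GATOR2, gave no call in either dex comparison. Sesn2 (ENSMUSG00000028893, chromosome 4, 132492032 to 132510501) was the germ-high sestrin, at 106.9, 105 and 112 CPM in saline germ cells and 28.4, 31.7 and 29.4 CPM in saline somatic cells. Its log2 fold change of germ over somatic cells was 1.85 ± 0.092 in saline and 1.87 ± 0.13 in dex (edgeR adjusted p 2.83e-09 and 4.4e-08). Germ libraries lay above somatic libraries in every case, where 79.7% of all genes tested were separate in either direction in saline and 79.9% in dex. The dex effect on Sesn2 was 0.042 in germ cells (95% confidence interval -0.13 to 0.22) and 0.054 in somatic cells (-0.23 to 0.34).

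Sesn3 (ENSMUSG00000032009, chromosome 9, 14275067 to 14333101) is a FoxO target in other cells. In somatic cells it stood at 51.7, 66.0 and 51.8 CPM with saline and at 45.6, 40.3 and 42.3 CPM with dex. The dex libraries all lay below the saline libraries, a separation found in 21.4% of all genes tested, but the log2 fold change of -0.37 ± 0.11 had an edgeR adjusted p of 0.088. The adjusted p was 0.048 with DESeq2, 0.046 with library totals and 0.045 with no filter on low counts. In germ cells it stood at 66.4 to 66.8 CPM with saline and 64.01 to 73.3 CPM with dex, a log2 fold change of 0.068 (95% confidence interval -0.12 to 0.26). The germ effect minus the somatic effect was 0.48 ± 0.15 (adjusted p 0.17).

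Between the populations, Sesn3 was higher in germ cells in dex by a log2 fold change of 0.71 ± 0.10 (edgeR adjusted p 4.4e-05). In saline the value was 0.23 ± 0.11 (adjusted p 0.071), with germ libraries above somatic libraries, and 8 of the 16 fits run called it, the fit without saline somatic replicate 2 among them (0.36). Sesn1 (ENSMUSG00000038332, chromosome 10, 41809935 to 41908424), a p53 target, stood at 44.1 to 52.3 CPM in dex germ, 51.8 to 59.7 CPM in saline germ, 60.3 to 66.7 CPM in dex somatic and 58.0 to 68.2 CPM in saline somatic cells. The 2 treatments overlapped in somatic cells and in germ cells. Its log2 fold change with dex was -0.20 ± 0.10 in germ cells (adjusted p 0.40) and 0.072 ± 0.098 in somatic cells (adjusted p 0.79). Germ cells were lower than somatic cells in dex, by -0.37 ± 0.11 (adjusted p 0.0063), a call lost under library totals (-0.19) and DESeq2 (-0.26).

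Foxo1 (ENSMUSG00000044167, chromosome 3, 52268336 to 52353221) was the most germ-enriched member. With saline it stood at 209, 224 and 197 CPM in germ cells and 36.8, 45.5 and 38.8 CPM in somatic cells. With dex it stood at 229, 194 and 231 CPM in germ cells and 43.7, 45.4 and 38.8 CPM in somatic cells. Every germ library was above every somatic library, and the 2 treatments overlapped within each population. Germ and somatic libraries were separate, in either direction, in 79.7% of all genes tested in saline and 79.9% in dex. The log2 fold change of germ over somatic cells was 2.38 ± 0.10 in saline and 2.35 ± 0.10 in dex (edgeR adjusted p 6.8e-10 and 5.85e-10), about 5.19- and 5.1-fold. The dex effect was 0.047 in germ cells (95% confidence interval -0.13 to 0.22) and 0.11 in somatic cells (-0.13 to 0.35).

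Foxo3 (ENSMUSG00000048756, chromosome 10, 42181841 to 42276755) was higher in germ cells too, but by less. It stood at 266 to 332 CPM in saline germ cells, 289 to 319 CPM in dex germ cells, 178 to 229.7 CPM in saline somatic cells and 198 to 209 CPM in dex somatic cells. The germ libraries lay above the somatic libraries within each treatment. Germ over somatic cells, the log2 fold change was 0.54 ± 0.11 in saline and 0.55 ± 0.075 in dex (edgeR adjusted p 0.00059 and 2.58e-05). The dex effect was 0.023 in germ cells (95% confidence interval -0.15 to 0.20) and 0.047 in somatic cells (-0.13 to 0.23). For both FoxO genes these intervals leave out a dex effect of the size seen for Pik3r1, whose log2 fold changes were 0.60 and 0.58.

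Irs1 and Irs2, the adaptors that carry the insulin signal to PI3-kinase, were somatic-high. With saline, Irs1 (ENSMUSG00000055980, chromosome 1, 82233101 to 82291416) was at 2.54, 2.14 and 1.86 CPM in germ cells and 22.7, 27.3 and 24.3 CPM in somatic cells. With dex it stood at 1.89, 2.14 and 1.16 CPM in germ cells, which is 25 to 58 counts per library, and 25.6, 31.6 and 26.6 CPM in somatic cells. All germ libraries lay far below all somatic libraries. The log2 fold change of germ over somatic cells was -3.50 ± 0.20 in saline and -4.00 ± 0.24 in dex (edgeR adjusted p 8.44e-09 and 1.15e-08). On the log2(FPKM + 1) scale, which understates changes of low genes, these shrank to -1.51 and -1.71. At the Leydig shares, somatic Irs1 would give 0.65 CPM of the 2.18 CPM in saline germ cells and 0.52 CPM of the 1.73 CPM in dex germ cells. The shares of the erythroid, endothelial, macrophage and lymphocyte lists were higher, but part of their germ sums came from single genes, as given above. The part of such cells in the low germ level of Irs1 was not tested. The dex effect was -0.33 in germ cells (95% confidence interval -1.05 to 0.39) and 0.20 in somatic cells (-0.07 to 0.48).

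Irs2 (ENSMUSG00000038894, chromosome 8, 10984681 to 11008458), itself a FoxO and insulin-regulated gene, was at 46.3, 51.2 and 51.2 CPM in saline germ cells and at 56.4, 73.6 and 50.2 CPM in dex germ cells. In somatic cells it stood at 175, 139.7 and 158 CPM with saline and 228, 166 and 139.9 CPM with dex. The treatments overlapped in both populations, while germ libraries lay below somatic libraries throughout. Germ over somatic cells, the log2 fold change was -1.67 ± 0.10 in saline and -1.57 ± 0.17 in dex (edgeR adjusted p 1.7e-08 and 4.37e-06). The dex effect in germ cells, 0.27 ± 0.12, had an unadjusted p of 0.046 and an adjusted p of 0.33. In somatic cells it was 0.20 ± 0.14 (adjusted p 0.55).

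**Figure D3:**
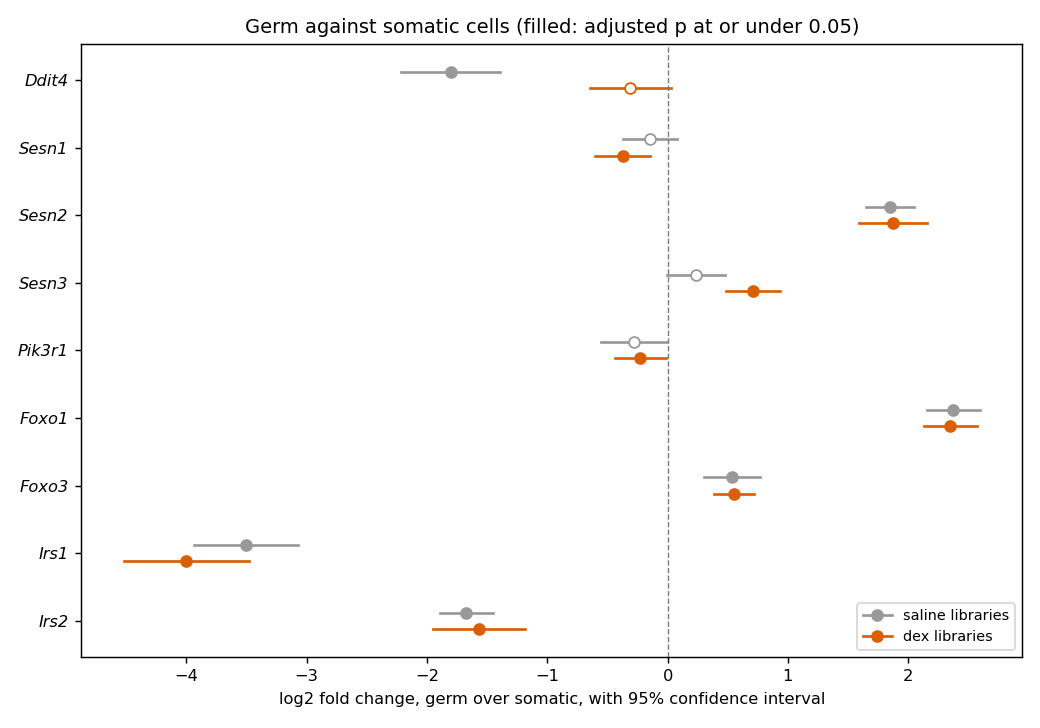
Log2 fold change of germ over somatic cells for each gene on the y axis, in saline and in dex libraries. Lines are 95% confidence intervals and filled points have an adjusted p at or under 0.05. Foxo1 and Sesn2 lie to the right and Irs1 and Irs2 to the left in both treatments, and Ddit4 lies at -1.80 in saline and -0.31 in dex.

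In saline, 3 of the 9 genes were called higher in germ cells (Sesn2, Foxo1 and Foxo3) and 3 lower (Ddit4, Irs1 and Irs2), where 39.8% and 36.7% of 18870 genes were. In dex, 4 were called higher (Sesn3 in addition) and 4 lower (Sesn1, Pik3r1, Irs1 and Irs2), where 40.5% and 35.7% of 18778 genes were. With 9 genes these shares lie near those of all genes. Germ and somatic libraries did not overlap for 7 of the 9 in each treatment, beside 79.7% of all genes in saline and 79.9% in dex. Both population comparisons share their libraries with the dex comparisons. The median of all genes moved with the scaling, from 0.072 to 0.21 in saline and from 0.12 to 0.30 in dex with library totals, and the directions of the called members held. The 8 calls in dex include Pik3r1, at -0.23 ± 0.096 (edgeR adjusted p 0.049) with overlapping libraries, and it was called in 3 of 16 fits run. It lost its call without dex germ replicate 2 or 3 or dex somatic replicate 2 or 3 (-0.22 to -0.15). In saline Pik3r1 was at -0.28 ± 0.12 (adjusted p 0.059) and was called without saline germ replicate 3 (-0.35) or saline somatic replicate 1 (-0.42). The median of the absolute log2 fold changes of the 9 genes was 1.67 in saline and 0.71 in dex, beside 1.2 and 1.26 over all genes.

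Levels of different genes can be compared per length only, as FPKM (fragments relative to gene length and library size, from the deposited table). In saline germ cells the order was Foxo3 (39.8 ± 4.81 FPKM, SD, n = 3), Sesn2 (31.6 ± 1.17), Foxo1 (24.7 ± 1.55), Ddit4 (21.3 ± 6.35), Sesn1 (14.4 ± 1.17), Irs2 (7.99 ± 0.51), Pik3r1 (4.71 ± 0.30), Sesn3 (4.44 ± 0.047) and Irs1 (0.24 ± 0.036). Of these neighbours, the libraries overlapped between Foxo1 and Ddit4 and between Pik3r1 and Sesn3. In dex germ cells Ddit4 stood first at 66.2 ± 15.4 FPKM, its libraries (52.1 to 82.6) all above those of Foxo3 (39.2 to 43.6), and Irs2 overlapped Sesn1. The others kept their order.

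In saline somatic cells Ddit4 led at 67.9 ± 11.9 FPKM, followed by Foxo3 (25.1 ± 2.55) and Irs2 (23.4 ± 3.15), whose libraries overlapped. Sesn1 (14.6 ± 0.85) and Sesn2 (8.05 ± 0.26) came next. Pik3r1 (5.23 ± 0.75) and Foxo1 (4.36 ± 0.37) overlapped, and Sesn3 (3.46 ± 0.41) and Irs1 (2.54 ± 0.18) closed the order. In dex somatic cells Ddit4 stayed first (76.1 ± 11.8 FPKM), Irs2 overlapped Foxo3, Sesn2 overlapped Pik3r1, and Irs1 overlapped Sesn3.

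**Figure D4:**
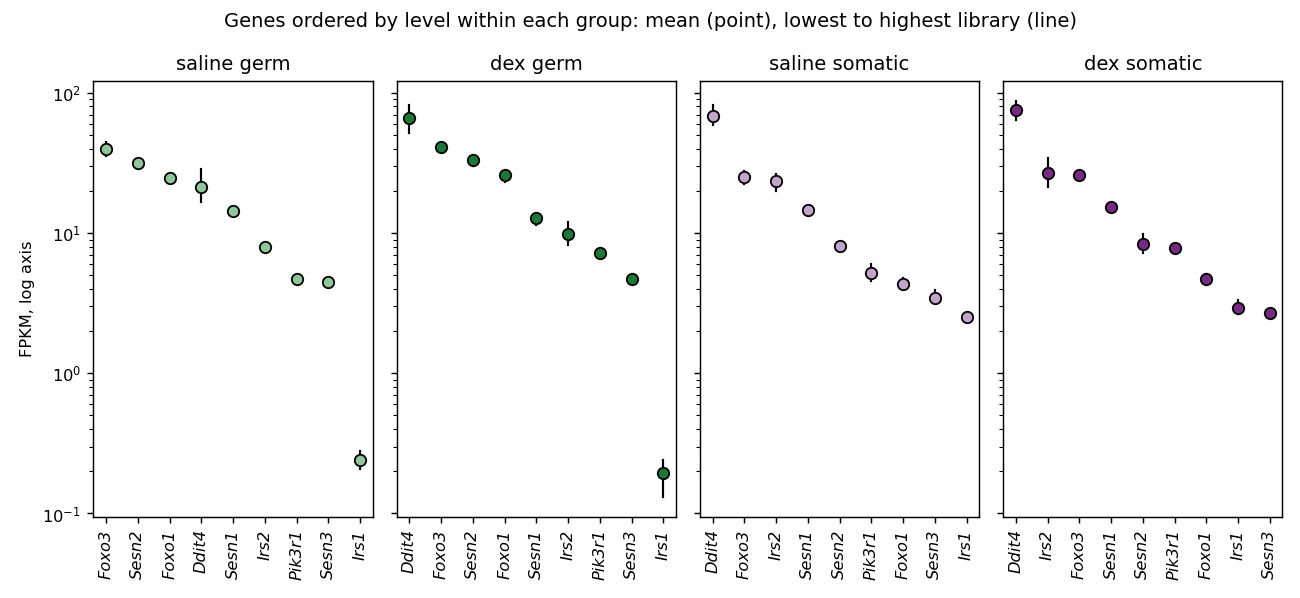
FPKM of the 9 genes on a log axis, ordered within each group from the highest to the lowest mean. Points are means of 3 libraries and lines run from the lowest to the highest library. Ddit4 is the fourth gene in saline germ cells and the first in the other groups.

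The rest of the pathway was described with 12 lists of 157 further genes. In germ cells dex gave no call higher and 2 lower among 151 list genes tested, beside 0.739% and 0.507% of all genes, so the counts lie near the background. Shc1, an adaptor that links receptors to Ras, fell from 122 ± 7.40 to 82.7 ± 8.72 CPM (log2 fold change -0.56 ± 0.089, edgeR adjusted p 0.0068). Cited2, a CBP/p300-binding regulator on the FoxO target list, fell from 49.4 ± 5.57 to 33.4 ± 3.43 CPM (-0.57 ± 0.12, adjusted p 0.0296). The call for Shc1 was lost without saline germ replicate 1 (-0.57), and that for Cited2 without dex germ replicate 1 or 3 or saline germ replicate 1 or 2 (-0.63 to -0.47). Both also lost it with limma-trend on FPKM, and Cited2 with the replicate block (edgeR adjusted p 0.0665). Of 16 fits run, 13 called Shc1 and 9 called Cited2. The median log2 fold change of the list genes in germ cells was -0.012, beside -0.0027 over all genes.

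None of the 10 PI3K subunits, 10 AKT and SGK kinases, 7 TSC and Rheb genes, 10 mTOR complex genes, 27 GATOR, Rag and Ragulator genes or 14 mTORC1 effectors was called in germ cells. At an unadjusted p under 0.05 these lists held 1, 1, 0, 4, 3 and 2 genes, where 14.7% of all genes tested had such a p. The receptors and adaptors held 5 of 10 tested and the FoxO target genes 9 of 22. The PIP3 and AKT phosphatases held 1 of 8, AMPK genes 1 of 9 and other FoxO factors with 14-3-3 genes 1 of 9. All lists together held 29 of 151, and none was tested as a set. On the list of 15 ATF4 and p53 target genes, none was called in germ cells. Of these, 1 had an unadjusted p under 0.05, against the same 14.7% of all genes. The cause of the Ddit4 rise was not tested.

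In somatic cells 8 of the 147 list genes tested rose and 1 fell, beside 2.74% and 1.17% of all genes. On the list of 26 FoxO target genes, of which 21 were tested, 3 rose. Txnip, which restrains glucose uptake and thioredoxin, rose from 262 ± 45.5 to 534 ± 74.8 CPM (log2 fold change 1.05 ± 0.13, edgeR adjusted p 0.00022). Pdk4, which shuts the pyruvate dehydrogenase complex, rose from 7.72 ± 0.99 to 14.9 ± 4.28 CPM (0.98 ± 0.22, adjusted p 0.017), and Klf15, a glucocorticoid-responsive regulator of amino acid and glucose metabolism, from 10.5 ± 2.45 to 20.1 ± 4.06 CPM (0.97 ± 0.19, adjusted p 0.0082). Fbxo32 (atrogin-1), a ubiquitin ligase of muscle atrophy on the same list, fell from 32.3 ± 7.77 to 19.3 ± 2.94 CPM (-0.71 ± 0.16, adjusted p 0.021). Called or not, 16 of the 21 tested genes of this list were higher with dex and 5 lower. The transcripts of Foxo1 and Foxo3 had no call, and FoxO activity was not tested. The list's median was 0.11, beside -0.0066 over all genes.

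Among upstream regulators of mTORC1, Castor2, an arginine-sensor homologue that binds GATOR2, rose from 30.9 ± 1.31 to 52.2 ± 2.74 CPM in somatic cells (log2 fold change 0.78 ± 0.11, edgeR adjusted p 0.00056). Nprl2, a subunit of GATOR1, rose from 16.9 ± 2.24 to 25.4 ± 2.35 CPM (0.61 ± 0.15, adjusted p 0.0301). It stood at 13.3 ± 1.22 CPM in saline germ and 19.7 ± 0.80 CPM in dex germ cells, a change of 0.56 ± 0.14 (adjusted p 0.0695). Downstream, Tfeb, the lysosomal transcription factor that mTORC1 retains in the cytoplasm, rose by 0.55 ± 0.14 (adjusted p 0.037), and Eef2k, the kinase that slows translation elongation, by 0.42 ± 0.094 (adjusted p 0.0193). Vldlr, a lipoprotein receptor on the ATF4 and p53 list, rose from 17.8 ± 4.84 to 31.4 ± 5.01 CPM (0.85 ± 0.18, adjusted p 0.0114).

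Txnip and Castor2 were called in all 16 fits run in somatic cells. The other 7 were called in 6 (Tfeb), 8 (Eef2k), 10 (Pdk4, Fbxo32 and Nprl2), 11 (Vldlr) and 13 (Klf15) of the 16. Klf15 lost its call without saline replicate 3 (0.89), Vldlr without dex replicate 2 or saline replicate 3 (0.72 and 0.67), and Pdk4 without dex replicate 2 or saline replicate 1 or 3 (0.74 to 0.99). Nprl2 lost it without dex replicate 2 or 3 or saline replicate 2 or 3 (0.53 to 0.61), Fbxo32 without dex replicate 1 or 3 or saline replicate 1 or 2 (-0.75 to -0.55), and Eef2k without dex replicate 1 or 3 or saline replicate 1 or 3 (0.36 to 0.41). Tfeb kept its call only without dex replicate 3, and the values without each other library were 0.46 to 0.63. The peritubular, stromal and macrophage sums moved with dex in these same somatic libraries, and their part in these changes was not tested.

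**Figure D5:**
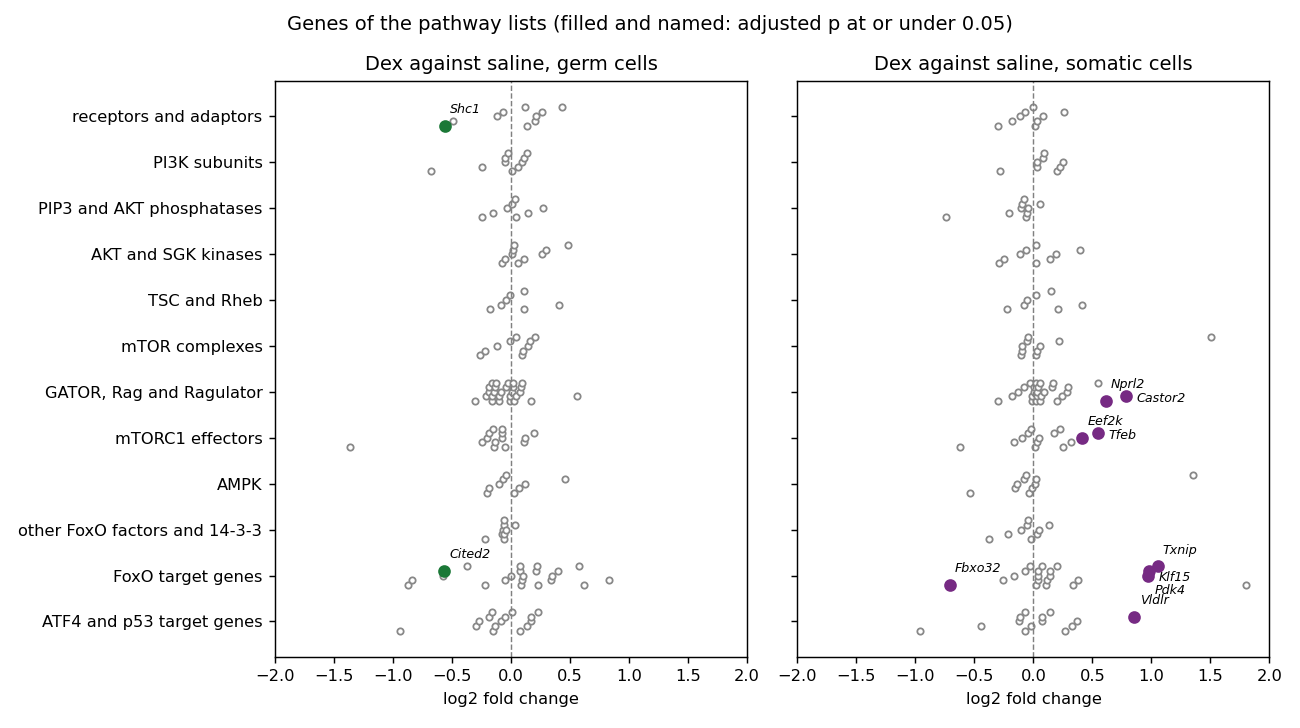
Log2 fold change of dex over saline for each tested gene of the 12 pathway lists, in germ cells (left) and somatic cells (right). Filled and named points have an adjusted p at or under 0.05: 2 genes in germ cells, both lower, and 9 in somatic cells, of which Fbxo32 was lower.

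The same lists were compared between the populations in saline, where 65 of 152 tested genes were called higher in germ cells and 59 lower, close to the shares of all genes. The list of PI3K subunits, singled out after its values were seen, had 8 of 10 called higher in germ cells and 1 lower, beside 39.8% and 36.7% of all genes. Its median log2 fold change was 2.43, beside 0.072 over all genes. The list includes Pik3ip1, which is not a subunit, and leaves out the member Pik3r1, at -0.28 in saline. Among catalytic subunits, Pik3cd stood at 260 ± 30.6 CPM in germ and 24.3 ± 1.67 CPM in somatic cells, Pik3cb at 77.5 ± 1.58 and 9.83 ± 1.96 CPM, and Pik3ca at 127 ± 1.13 and 82.4 ± 2.93 CPM. Among regulatory subunits, Pik3r3 stood at 133 ± 4.22 and 5.90 ± 1.96 CPM (log2 fold change 4.48 ± 0.18, edgeR adjusted p 4.86e-10), while Pik3r2 stood at 144 ± 10.7 and 152 ± 11.2 CPM (adjusted p 0.42). The class III kinase Pik3c3 and its partner Pik3r4 were higher in germ cells, by 1.89 ± 0.099 and 1.38 ± 0.12, and so were Pik3cg and Pik3r5, at 10.2 and 7.90 CPM in saline germ cells. Pik3ip1, an inhibitor of PI3-kinase, was lower in germ cells (-0.88 ± 0.11).

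The paralogs of the members and the receptors above them, also picked after their values were seen, differed between the populations. Ddit4l (REDD2), the paralog of Ddit4, stood at 1.74 ± 0.80 CPM in saline germ and 58.6 ± 6.07 CPM in saline somatic cells (log2 fold change -5.08, edgeR adjusted p 1.94e-09), and at 2.32 ± 0.19 CPM in dex germ cells (dex effect 0.41, adjusted p 0.66). The part of somatic cells in the low germ levels of Ddit4l was not tested. Irs4 was at 12.4 ± 1.09 CPM in germ and 0.76 ± 1.02 CPM in somatic cells with saline. The receptors upstream split between the populations: Igf1r was higher in germ cells (271 ± 18.1 and 198 ± 5.66 CPM, adjusted p 0.00022) and Insr lower (21.1 ± 3.66 and 75.6 ± 8.01 CPM, adjusted p 1.29e-07). Foxo4 was slightly higher (75.9 ± 8.35 and 62.1 ± 6.23 CPM, adjusted p 0.033), and Foxo6 was lower in germ cells (65.6 ± 6.58 and 138 ± 6.72 CPM, adjusted p 5.15e-07). Mtor itself stood at 328 ± 5.26 CPM in germ and 68.8 ± 9.26 CPM in somatic cells (2.25 ± 0.099).

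Across the 12 libraries, with each population's mean taken out, the genes most like Ddit4 among 11465 searched were Mkrn1 (Pearson's r 0.96), Nudt4 (0.96) and Adcy6 (0.95). All 3 rose with dex in germ cells, by 0.68, 0.42 and 0.95 on the log2 scale (edgeR adjusted p 0.0067, 0.016 and 0.00084), and none was called in somatic cells. The genes most like Pik3r1 were Tgm2 (0.94), Fgfr2 (0.94) and Nicn1 (0.94). Tgm2 rose in both populations, by 0.74 and 0.75 (adjusted p 0.044 and 0.00038), and Fgfr2 in somatic cells by 0.79 (adjusted p 0.0011), while Nicn1 was called in neither. Among the members, Ddit4 and Pik3r1 had the highest r (0.70), followed by Sesn1 and Irs1 (0.65). These values describe 12 libraries that share treatment and depth, and they carry no test. The genes outside the members were picked for likeness to Ddit4 or Pik3r1 over these same libraries. Their dex changes follow in part from that choice.

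Of the 64-base words of their annotated transcripts, none was shared with another gene for Ddit4, Sesn1, Sesn2 and Foxo3, and 0.183% to 6.38% were shared for Sesn3, Pik3r1, Irs2 and Foxo1. For Irs1 it was 30.4%, all with Gm9747, a gene on the opposite strand that holds 0 counts in the 12 libraries. The strand setting of the counting is not given in the sources used here, so reads of Irs1 and Gm9747, and of Foxo1 and Gm20402, cannot be told apart. Gm20402 holds 0 counts as well. Whether reads over the shared stretches were counted is not known, so the levels of Irs1 and Foxo1 could be understated. Other overlapping genes held at most 0.624% of the counts of a member (Pik3r1).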

How the data were processed

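Bulk RNA-seq libraries of sorted PN1 testis cells were compared in 4 groups of 3, with groups and replicate numbers from the labels. Per the submitters' processing notes and the study's methods, the authors aligned paired-end reads to mm10 (GRCm38) with HISAT2 2.0.5, counted reads per gene with featureCounts 1.5.0-p3 and tested with DESeq2 1.20.0; the annotation release and strand setting are not given in the sources used here. The deposited raw counts are whole-number counts per gene with no normalization. The deposited FPKM values are those counts divided by gene length and library size by the authors. The authors also deposited tables of their own comparisons with fold changes and p-values, which were not used.

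Tests used R 4.3.3 with edgeR 4.0.16: TMM, filterByExpr with a minimum count of 10 and the quasi-likelihood test, Benjamini-Hochberg adjusted over all genes tested. Each comparison used its 6 libraries, and the difference between dex effects all 12. SE is the log2 fold change divided by the square root of F. All 9 members passed the filter in every comparison. Log2 CPM used a prior count of 2. Alternatives used DESeq2 1.42.0, limma 3.58.1 (log2 FPKM with 0.1 or 1 added), other scalings and filters, a replicate block, 1 fit of 12 libraries and leaving out each library. The text names the 9 members and each list gene called in a dex comparison or in the difference (at most 12 per comparison). It names 3 genes most like each called member, among genes whose mean log2 CPM was 2 or higher. Other list genes, and single marker genes, were named after their values were seen. Of 157 list symbols, Ddit3 has 2 entries, 1 of them at 0 counts throughout. The members and lists were chosen with earlier results of these data known. Differences between replicates exceeded counting error. They pool litters, so p-values measure the spread between pools. No batch or date is given in the labels.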

Additional observations from a re-analysis of the deposited data

Results flagged for a closer look

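The dex effect in germ cells minus that in somatic cells passed the test for Ddit4 and 4 list genes. Ddit4 differed by 1.49 on the log2 scale (edgeR adjusted p 0.0152), with all 3 dex germ libraries above all 3 saline germ libraries. These germ libraries were separate, in either direction, in 20.01% of all genes tested. The 4 list genes had a lower effect in germ cells. Castor2 differed by -0.85 (adjusted p 0.00998): it stood at 39.6 ± 2.15 CPM in dex germ and 42.4 ± 2.39 CPM in saline germ cells while it rose in somatic cells, and it was called in all 21 fits run.

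Gadd45b, a growth-arrest and stress gene, differed by -1.14 (edgeR adjusted p 0.022). It stood at 3.22 ± 0.77 CPM in dex germ, 5.78 ± 0.41 CPM in saline germ, 109 ± 14.04 CPM in dex somatic and 87.8 ± 10.2 CPM in saline somatic cells, and neither population alone was called (adjusted p 0.099 and 0.13). The part of somatic cells in its low germ levels was not tested. The call for Gadd45b was lost without dex germ replicate 1 or 3, saline germ replicate 2 or 3 or dex somatic replicate 3 (-1.13 to -1.04). Shc1 differed by -0.61 (adjusted p 0.045), and its call was lost in 8 of the 12 fits that each left out 1 library (-0.63 to -0.55), with exceptions dex germ replicate 2, saline germ replicate 2, dex somatic replicate 2 and saline somatic replicate 2. Gabarapl1, an autophagosome protein gene, differed by -0.54 (adjusted p 0.0496). It stood at 23.5 ± 1.66 CPM in dex germ, 30.3 ± 1.122 CPM in saline germ, 121 ± 4.31 CPM in dex somatic and 107 ± 4.43 CPM in saline somatic cells, and it lost its call in 11 of the 12 fits that left out 1 library (-0.60 to -0.51), all but that without dex germ replicate 3. With the replicate block, Gadd45b (edgeR adjusted p 0.055), Shc1 (0.095) and Gabarapl1 (0.12) also lost their calls in the difference.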

How the results depend on the processing

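Of 720 refits of single members, 640 kept direction and call, 26 lost and 18 gained a call and 36 changed sign, at most 0.10 from 0 on the log2 scale. With limma-trend on log2(FPKM + 0.1) and on log2(FPKM + 1), 0 members were called in germ cells, in somatic cells or in the difference. With DESeq2, library totals and no filter, 2 members were called in somatic cells, Sesn3 being the second. Leaving out each library gave 1 to 2 called members in germ cells (1 without saline germ replicate 1), 0 to 1 in the difference (0 without saline germ replicate 1 or 2), 1 in somatic cells, 6 to 7 between populations in saline and 7 to 8 in dex. The causes were not tested.

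Signs changed with library totals for Sesn2 (-0.0035) and Foxo3 (-0.012) in somatic cells and Foxo1 in the difference (0.021). The Foxo3 difference was -0.0037 with DESeq2, -0.0048 with its size factors, -0.0024 with at least 10 counts in every library, and -0.0025 and -0.0018 with limma. Without 1 library, ranges crossed 0 in germ cells for Sesn2 (-0.026 to 0.11) and Foxo3 (-0.049 to 0.11), in somatic cells for Sesn2 (-0.080 to 0.16), Foxo3 (-0.024 to 0.11) and Irs2 (-0.011 to 0.35), and in the difference for Sesn2 (-0.10 to 0.14), Pik3r1 (-0.079 to 0.12), Foxo1 (-0.11 to 0.057), Foxo3 (-0.077 to 0.10) and Irs2 (-0.067 to 0.30).

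Dex and saline pools came from different litters, and their same-numbered germ libraries correlated at -0.088 to 0.044. Germ and somatic libraries of 1 number may share a pool, but the labels do not say so. Between saline germ and saline somatic cells (0.037 to 0.044) every sample correlated best with its own number, a hint only. Between dex germ and dex somatic cells (-0.016 to -0.0030) none did. The main fits used no pairing. With the replicate block, 2, 1 and 1 members stayed called in germ cells, somatic cells and the difference, and 7 were called between populations in each treatment. Pik3r1 gained its call in saline (-0.27, edgeR adjusted p 0.048) and lost it in dex (-0.23, adjusted p 0.084).

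Over all genes, 231 calls in germ cells became 674 with DESeq2, 767 with no filter, 6 and 12 with limma, 65 with the block, 142 with 12 libraries in 1 fit and 49 to 265 without 1 library. In somatic cells 655 became 1061 with no filter, 251 and 281 with limma and 354 to 547 without 1 library. In the difference 170 became 620 with DESeq2, 706 with no filter, 262 with at least 10 counts in every library, 57 with limma on FPKM + 0.1, 90 with the block and 79 to 172 without 1 library. With 3 libraries a group, an interval that spans 0 does not show that a gene did not respond.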
